A study of Homo sapiens with 24 samples.

Results

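The RNAs described here were genes whose symbol ends in -AS1, -AS2 or -AS3, the ending given to transcripts that run on the strand opposite a named sense gene, and that were expressed in 2 clear cell renal cell carcinoma (ccRCC) lines. A gene was a member when its mean estimated count over the 24 RNA-seq libraries was at least 50, and 171 of 971 antisense-named genes among 26475 genes in all met this rule. Because measured counts chose the members, their expression is given as a description. Of the 171, 159 end in -AS1, 10 in -AS2 and 2 in -AS3, and for 167 the sense gene, taken as the text before the hyphen, was also in the table. The exceptions were JHDM1D-AS1, HOXD-AS2, HOXA-AS2 and RPARP-AS1.

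The lines were 786-M1A and OS-LM1, metastatic derivatives of the ccRCC lines 786-O and OS-RC2, in which the kidney lineage transcription factor PAX8 was targeted. Each line carried shPAX8-1 or shPAX8-2, short hairpins against PAX8 delivered in an inducible vector per the study's methods, or sgNTC18, a non-targeting guide RNA, with 4 replicate libraries in each of the 6 groups. All cells were grown in RPMI with serum, and nothing in the labels says that replicates came from separate cultures, so that p-values measure only the spread between these libraries, which may be technical. The sgNTC18 control is a guide and not a hairpin, and the labels do not place it in the same experiment as the hairpins, so that PAX8 depletion, the type of vector and the experiment cannot be told apart in any comparison of shPAX8 with sgNTC18.

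Antisense long non-coding RNAs fall into several arrangements. Divergent and head-to-head RNAs start near the start of the sense gene and run away from it or across its first exon, often from a shared CpG-rich promoter, and tail-to-tail RNAs meet the sense transcript at its end. Many are spliced and polyadenylated, many unstable divergent transcripts are removed by the nuclear RNA exosome, and individual antisense RNAs can act on the neighbouring gene, act elsewhere, or have no known role.

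By the RefSeq annotation of GRCh38.p14, 46 members were divergent from their sense gene without overlap, 52 overlapped it head to head, 38 overlapped it tail to tail, 20 lay inside it, 6 spanned it and 3 were convergent without overlap, while 6 pairs could not be placed. The distance between the starts was at most 1000 bases in 73 of the 98 divergent or head-to-head pairs, with a median of 401.5 bases. The current RefSeq symbol differed for 35 members, 22 of which are now named as divergent transcripts (-DT). RefSeq classes 161 members as lncRNA and 2 as antisense RNA, while 2 were not matched. Another 4 are now classed as protein coding, namely MMP24-AS1 (now MMP24OS), NCBP2-AS2 (NCBP2AS2), TOPORS-AS1 (SMIM27) and FAM83H-AS1 (IQANK1), and 2 as transcribed pseudogenes, TP73-AS1 (GFOD3P) and PSMD5-AS1 (CUTALP). They were kept as members because the rule goes by the symbol in the table. By GENCODE v44 exons, 134 members shared exon bases with some gene on the other strand, 116 of them with their own sense gene, and 33 shared none. The GENCODE exons were shorter than the length the authors counted for 17 members, and under 50% of it for SVIL-AS1, EMC3-AS1, KMT2E-AS1 and PDCD4-AS1, so that overlap was assessed over only part of those transcripts. Whether the authors' counting used strand is not given in the sources used here. Reads from shared exon bases may therefore belong to either gene, and the overlap is given below as the percent of a member's exon bases that lie opposite another exon. These are GENCODE exon bases, which for some members exceed the length counted, as for OIP5-AS1 with 22370 against 1894. For such members a small percent can understate the part of the counted transcript that is shared.

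The hairpin guides are shown because they bear on whether a hairpin could act on PAX8-AS1 itself, the antisense RNA inside the PAX8 gene. They are printed 5′ to 3′ with the seed, bases 2 to 8, in capitals.
shPAX8-1: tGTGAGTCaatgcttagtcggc
shPAX8-2: tAGAGTTGtgttaataatggag
The site complementary to the shPAX8-1 guide lies at chr2:113241690-113241711 in GRCh38, on the minus strand that PAX8 uses, in an exon that is coding or untranslated depending on the transcript, and 10 of 14 GENCODE transcripts of PAX8 carry it. The shPAX8-2 site lies at chr2:113218122-113218143, in an untranslated exon carried by 7 of the 14. PAX8-AS1 runs on the plus strand at chr2:113235527-113267023, inside PAX8 at chr2:113215997-113278921. Neither site was present, as an exact match of all 22 bases, in any of the 30 GENCODE transcripts of PAX8-AS1. Seed or partial matches were not searched, so that action of a hairpin on PAX8-AS1 was not tested. The shPAX8-1 site falls within the span of the PAX8-AS1 gene but in none of its transcripts, and the shPAX8-2 site falls 17384 bases outside that span.

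The stretch between the starts of 3 divergent pairs shows how close such pairs can stand. NIPBL-AS1 is shown as a pair that moved in opposite directions in both lines, RNASEH1-AS1 as a pair that moved together, and SCAMP1-AS1 as an RNA that differed between the hairpins in OS-LM1. Each is printed 5′ to 3′ on the strand of the antisense RNA, from GRCh38, with CG dinucleotides in capitals.
NIPBL-AS1: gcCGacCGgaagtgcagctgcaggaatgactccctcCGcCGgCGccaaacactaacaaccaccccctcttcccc
RNASEH1-AS1: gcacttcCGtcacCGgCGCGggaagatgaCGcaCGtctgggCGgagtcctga
SCAMP1-AS1: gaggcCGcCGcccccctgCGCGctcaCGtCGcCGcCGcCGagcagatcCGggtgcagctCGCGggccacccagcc
These stretches cover chr5:36876695-36876768 on the minus strand with 74 bases, chr2:3558334-3558385 on the plus strand with 52 bases, and chr5:78360542-78360616 on the minus strand with 75 bases. They hold 5, 7 and 12 CG dinucleotides, and none holds TATAAA or CCAAT on either strand. The same letters were counted on both strands in the RefSeq windows from 250 bases before to 50 bases after each start in GRCh38.p14, which 137 of the 171 members matched. The median GC content of those windows was 67% with 26 CG dinucleotides, against 58% and 12 over 27305 windows of all genes and 47.7% and 4 over 1583 windows of LINC genes, which are named as long intergenic non-coding RNAs. TATAAA was present in 3.65% of the members' windows, in 9.93% of those of their sense genes and in 12.28% of all windows, and CCAAT in 33.6%, 34.8% and 35.4%.

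The members were a small, unevenly spread fraction of the RNA. Library totals ran from 11634419 to 52059375 estimated counts, the median being 18200166 where a hairpin was expressed and 32029482.5 where sgNTC18 was, and members held 0.146% to 0.188% of them. The epithelial and renal markers that fit such lines were present at 1 CPM (counts scaled to TMM-normalised library sizes) or more for 11 of 14 in 786-M1A and 12 of 14 in OS-LM1 with sgNTC18. With shPAX8, 1 of the 11 tested was called higher and 9 lower in 786-M1A, and 4 and 6 of 14 in OS-LM1, PAX8 itself being on the list. Their summed level went from 10621 to 10940 CPM with sgNTC18 to 8523 to 10180 CPM with shPAX8 in 786-M1A, and from 10283 to 13496 CPM to 5507 to 7203 CPM in OS-LM1. The list also holds the vimentin gene VIM and the genes CA9, NDUFA4L2 and VEGFA. A sum follows its most abundant genes, so that it is not a level of epithelial genes alone. Of 8 markers of immune, endothelial and fibroblast cells, 3 or 4 reached 1 CPM in every group. The summed level of these 8 was 19.3 to 25.8 CPM with sgNTC18 and 47.8 to 97.5 CPM with shPAX8 in 786-M1A, and 93.0 to 108 and 259 to 502 CPM in OS-LM1. ACTA2 and the collagen gene COL1A1 were called higher with shPAX8 in both lines, and the part of either marker list in the members' values was not tested.

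Levels are compared between genes as TPM, which is scaled by length. Mean TPM ran from 0.81 to 446 with a median of 5.30 over the members, against a median of 14.1 over their sense genes and 15.2 over all 12302 genes that reach the same mean count. LRRC75A-AS1, a small nucleolar RNA host gene that RefSeq now names SNHG29, led at 446 TPM. It was followed by MMP24-AS1, now classed as coding, at 91.4, PCNA-AS1 at 71.4, UGDH-AS1 at 43.7, NUTM2A-AS1 at 42.5, FGD5-AS1 at 38.2, PITPNA-AS1 at 36.3, TPT1-AS1 at 29.2, SVIL-AS1 at 28.1 and NUTM2B-AS1 at 27.6 TPM. NUTM2A-AS1 and NUTM2B-AS1 are near-identical copies whose reads cannot be assigned with certainty. The remaining members were far lower, with 47 of the 171 at 10 TPM or more and 17 under 2 TPM.

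The antisense RNA was the lower of the pair in most cases. In 116 of 167 pairs the sense gene had the higher mean TPM, in 32 of them over 10-fold, while the antisense RNA was higher in 51 and over 2-fold higher in 36. The median log2 ratio of antisense to sense TPM was -1.25. Expression was shared between the lines for most members: 129 reached a mean of 50 in both lines, 24 fell under it in 786-M1A and 18 in OS-LM1, and 162 had a count above 0 in every library. The mean reached 50 in all 6 groups for 73 members and in only 1 or 2 groups for 11, which entered through the groups in which they were high. Over the 20 libraries outside a member's highest group, 18 members had a mean under 50, with APOBEC3B-AS1 at 8.72, PHKA2-AS1 at 12.1, ATP2A1-AS1 at 23.9, PRKCQ-AS1 at 25.5, PAPPA-AS1 at 32.5 and AFAP1-AS1 at 39.2 counts among them. The rule therefore fixes part of any difference between that group and the others for these 18, and their values below are a description. Just inside the threshold stood ZNF213-AS1 at a mean count of 51.4, NDUFB2-AS1 at 50.8 and PHKA2-AS1 at 50.2, and just outside it POT1-AS1 at 49.9, HOXB-AS1 at 49.4 and SUCLG2-AS1 at 48.9.

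PAX8 was measured first as a check of the labels. In 786-M1A the sgNTC18 libraries held 291, 393, 360 and 319 CPM, the shPAX8-1 libraries 22.9, 21.9, 15.2 and 14.8 CPM and the shPAX8-2 libraries 41.3, 45.5, 42.6 and 40.0 CPM. In OS-LM1 the 4 sgNTC18 libraries held 245 to 279 CPM and the 8 shPAX8 libraries 59.8, 79.1 and 97.0 CPM at the lowest, median and highest. No shPAX8 library overlapped the control in either line, and the fall was 11.9-fold in 786-M1A and 3.33-fold in OS-LM1 (edgeR's quasi-likelihood test with Benjamini-Hochberg adjustment, used for every adjusted p below, adjusted p = 5.6e-12 and 9.4e-12). The fall differed between the lines by 1.87 ± 0.17 (SE) as a log2 value (edgeR adjusted p = 7.5e-10).

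PAX8-AS1 fell with PAX8 in both lines. It shares 7.47% of its exon bases with PAX8 exons. In 786-M1A it stood at 7.97, 7.90, 6.76 and 6.54 CPM with sgNTC18, at 1.52, 1.93, 1.26 and 1.33 CPM with shPAX8-1 and at 3.24, 3.56, 1.91 and 2.33 CPM with shPAX8-2. In OS-LM1 it stood at 10.4, 24.2, 10.1 and 15.8 CPM with sgNTC18, at 5.93, 5.66, 4.69 and 6.37 CPM with shPAX8-1 and at 7.07, 2.39, 5.32 and 3.81 CPM with shPAX8-2. All shPAX8 libraries were below all sgNTC18 libraries of their line, and in OS-LM1 the second sgNTC18 library stood well above the others. The log2 fold change was -1.80 ± 0.17 (SE, 8 against 4 libraries, edgeR adjusted p = 1.6e-07) in 786-M1A and -1.58 ± 0.26 (edgeR adjusted p = 0.00012) in OS-LM1. The fall of PAX8-AS1 was not shown to differ between the lines (difference 0.25 ± 0.32, edgeR adjusted p = 0.52), whereas that of PAX8 differed.

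The ratio within the pair therefore moved in 786-M1A. On the log2 scale of TPM with 0.1 added, PAX8-AS1 over PAX8 averaged -4.48 with sgNTC18 and -2.71 with shPAX8 in 786-M1A, a difference of 1.77 with no overlap between groups (two-sided exact permutation test, 8 against 4 libraries, p = 0.004, the smallest this design can give). In OS-LM1 it averaged -3.13 and -2.89, a difference of 0.24 with overlapping groups (two-sided exact permutation test, p = 0.39). The same test was run on other named pairs, 260 tests in all without adjustment, and others such as NUTM2A-AS1 also reached 0.004 in 786-M1A. Between the hairpins in 786-M1A, PAX8-AS1 was lower with shPAX8-1 (log2 difference -0.88 ± 0.22, edgeR adjusted p = 0.0054), a call that was lost when only replicates 1 and 2 of shPAX8-1 were kept (-0.69, adjusted p = 0.062). In OS-LM1 the same difference was 0.27 ± 0.34 (edgeR adjusted p = 0.61).

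**Figure D1:**
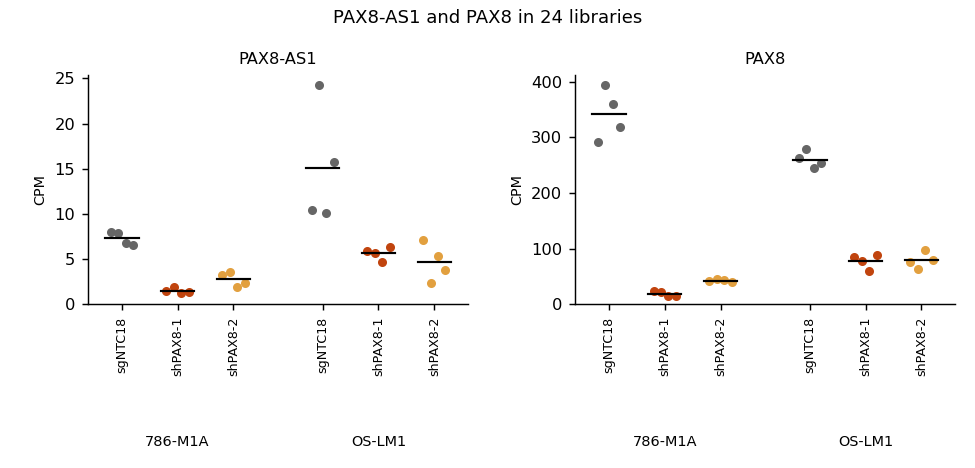
CPM of PAX8-AS1 (left) and PAX8 (right) in the 24 libraries, by line and construct, on linear axes from 0; points are libraries and bars group means. Every shPAX8 library lies below every sgNTC18 library of its line, with PAX8-AS1 means of 7.29 and 15.1 CPM in the sgNTC18 groups.

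The comparison of shPAX8 with sgNTC18 asks what accompanied loss of PAX8, within the limit on the control given above. In 786-M1A, 113 of 170 members tested passed an adjusted p of 0.05, 45 higher and 68 lower, where 70.4% of the 14452 genes tested passed, 35.7% higher and 34.7% lower. The members' median log2 fold change was -0.18, against 0.04 over all genes, and 55 of the 170 were called and changed over 2-fold, where 31.0% of all genes did. In OS-LM1, 119 of 169 passed, 46 higher and 73 lower, where 73.4% of 15049 genes passed, 36.4% higher and 37.1% lower, with medians of -0.25 for members and -0.01 for all genes, and 43 were called over 2-fold, where 28.9% of all genes were. Taken alone in 786-M1A, shPAX8-1 called 51 members higher and 69 lower (36.1% and 34.5% of all genes, 70.6% together) and shPAX8-2 45 higher and 54 lower (31.5% and 30.9%, 62.5% together). The LINC genes, chosen at the same mean count, gave 40 higher and 30 lower of 96 in 786-M1A and 41 higher and 30 lower of 101 in OS-LM1. In these bulk libraries fewer cells with an RNA and less of it per cell cannot be told apart.

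STXBP5-AS1, LIMD1-AS1 and MSC-AS1 rose in both lines. STXBP5-AS1, which starts head to head with STXBP5, the gene of a regulator of vesicle fusion, and shares 1.92% of its exon bases, went in 786-M1A from 4.19, 5.14, 5.21 and 4.96 CPM with sgNTC18 to 14.7, 17.7 and 22.3 CPM (lowest, median and highest of 8) with shPAX8. The groups did not overlap, and the rise was 3.70-fold (edgeR adjusted p = 2.8e-09). In OS-LM1 it was near the detection limit with sgNTC18, at 0.113 to 0.445 CPM, and the 4 shPAX8-1 libraries at 4.71 to 7.14 CPM carried most of the rise, while the shPAX8-2 libraries at 0.420 to 1.01 CPM overlapped the control.

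MSC-AS1, the head-to-head neighbour of the transcription factor gene MSC with 12.6% of exon bases shared, stood at 16.6 to 20.7 CPM in the 4 sgNTC18 libraries of 786-M1A and at 62.9, 70.2 and 98.4 CPM with shPAX8, a 4.19-fold rise (edgeR adjusted p = 4.2e-10). In OS-LM1 it went from 11.9 to 15.5 CPM up to 34.2, 37.7 and 44.8 CPM, a 2.71-fold rise without overlap (edgeR adjusted p = 3.5e-11). LIMD1-AS1, which shares 71.6% of its exon bases with other exons, rose 2.89-fold in 786-M1A with overlapping groups and 4.06-fold in OS-LM1 without overlap. The remaining members with the largest rises in 786-M1A were MATN1-AS1 at 4.82-fold, from 1.26 to 2.98 CPM up to 8.13 to 12.1 CPM, and ROR1-AS1, inside the receptor gene ROR1 with no exon bases shared, at 4.20-fold.

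CCDC183-AS1 and ASB16-AS1 fell in both lines, further in 786-M1A. CCDC183-AS1 (31.2% of exon bases shared) went in 786-M1A from 16.9, 28.8, 25.7 and 19.8 CPM to 0.722, 1.56 and 3.02 CPM, a 15.0-fold fall (edgeR adjusted p = 9.5e-11), and in OS-LM1 from 4.70 to 6.88 CPM down to 0.682, 1.47 and 2.92 CPM, a 4.0-fold fall (edgeR adjusted p = 2.2e-08). ASB16-AS1 (17.2% shared) fell 8.85-fold in 786-M1A and 1.76-fold in OS-LM1, and its groups did not overlap in either line. For both RNAs the fall differed between the lines, by 1.94 ± 0.29 for CCDC183-AS1 and 2.36 ± 0.20 for ASB16-AS1 as a log2 value (edgeR adjusted p = 2.2e-06 and 1.1e-10).

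NOP14-AS1 fell in 786-M1A, as did APOBEC3B-AS1, which is a member only through the sgNTC18 group of that line. NOP14-AS1, tail to tail with the ribosome biogenesis gene NOP14 and sharing 9.03% of its exon bases, went from 31.2, 32.7, 34.2 and 33.1 CPM to 2.04, 5.65 and 10.8 CPM, a 6.65-fold fall (edgeR adjusted p = 1.2e-11), while NOP14 fell by 0.62 on the log2 scale. In OS-LM1 NOP14-AS1 stood at 14.6 to 16.9 CPM with sgNTC18 and at 14.3, 20.5 and 22.6 CPM with shPAX8, a 1.26-fold rise with overlapping groups (edgeR adjusted p = 0.018). APOBEC3B-AS1 (35.3% shared), beside the cytidine deaminase gene APOBEC3B, went in 786-M1A from 16.3 to 20.8 CPM down to 0, 0.764 and 2.71 CPM. APOBEC3B itself went from 91.8 to 107 CPM down to 15.7, 20.4 and 26.6 CPM, and both RNAs were under 0.4 CPM in every OS-LM1 library.

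AFAP1-AS1 and PHKA2-AS1 fell in OS-LM1, from the sgNTC18 group through which both met the count rule. AFAP1-AS1, at chr4:7754090-7778928 on the plus strand opposite the actin filament-binding protein gene AFAP1, went from 84.8, 72.5, 82.1 and 72.8 CPM with sgNTC18 to 2.09, 3.03 and 3.46 CPM with shPAX8. This was a 27.3-fold fall, with 42.2% of its exon bases shared. AFAP1 rose by 0.43 ± 0.08 on the log2 scale in the same libraries. In 786-M1A AFAP1-AS1 was near 1 CPM with either construct, and its change was not called (-0.58 ± 0.31, edgeR adjusted p = 0.10). PHKA2-AS1 (82.7% shared) went in OS-LM1 from 5.45 to 8.64 CPM down to 0.179, 0.276 and 0.448 CPM while PHKA2, a subunit of phosphorylase kinase, fell by 2.00 on the log2 scale.

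PIK3CD-AS2 and PAPPA-AS1 rose in OS-LM1. PIK3CD-AS2, with no exon bases shared, went from 1.27 to 1.93 CPM up to 3.50, 5.61 and 7.66 CPM, a 3.35-fold rise (edgeR adjusted p = 6.1e-07), and was not called in 786-M1A (-0.11 ± 0.19, edgeR adjusted p = 0.61). PAPPA-AS1 was at 0 in 3 of 4 sgNTC18 libraries of OS-LM1 and at 0.362 CPM in the third replicate, and stood at 2.27, 8.38 and 12.7 CPM with shPAX8. All of its exon bases lie opposite exons of PAPPA, a metalloproteinase gene that went from 6.97 to 8.21 CPM up to 96.5, 116 and 133 CPM in the same libraries, so that reads of PAPPA-AS1 and PAPPA cannot be told apart unless the counting used strand.

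**Figure D2:**
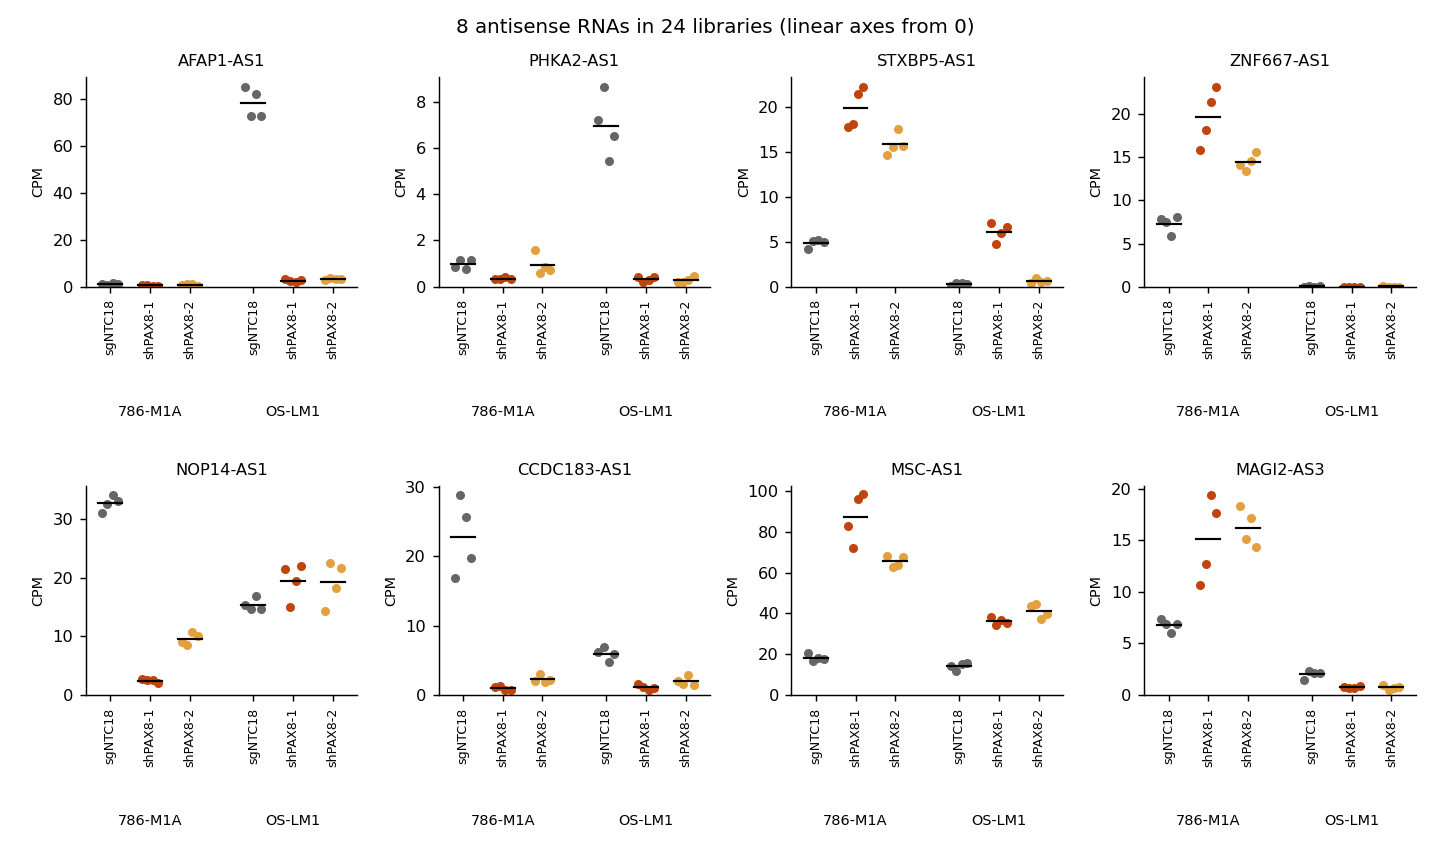
CPM of 8 antisense RNAs in the 24 libraries, by line and construct, on linear axes from 0; points are libraries and bars group means. AFAP1-AS1 and PHKA2-AS1 are high only in the sgNTC18 libraries of OS-LM1, ZNF667-AS1 is at or near 0 in OS-LM1, and NOP14-AS1 falls with shPAX8 in 786-M1A.

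Across the lines, 168 members were tested in both. The call was higher in both lines for 18 members, where 19.7% of 13737 genes were, and lower in both for 34, where 21.9% were. A further 11 members were higher in 786-M1A and lower in OS-LM1, where 6.25% of genes were, and 15 went the other way, where 6.25% did. The call was made in 1 line for 73 members (36.1% of genes) and in neither for 17 (9.76%). Among the members called lower in both were PAX8-AS1, CCDC183-AS1, ASB16-AS1, NIPBL-AS1 and KMT2E-AS1, and among those called higher in both were STXBP5-AS1, LIMD1-AS1, MSC-AS1, MATN1-AS1, ROR1-AS1, NR2F1-AS1 and OIP5-AS1.

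The members were also grouped by exon overlap. In 786-M1A the median log2 fold change was -0.00 over the 33 members with no exon bases shared, -0.11 over the 98 with under 30% shared and -0.48 over the 36 with 30% or more. In OS-LM1 the same medians were -0.25, -0.13 and -0.39. The members without shared bases gave 9 higher and 12 lower in 786-M1A and 9 higher and 15 lower in OS-LM1, beside the 70.4% and 73.4% of all genes called. The part of overlap in these values was not tested.

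Antisense and sense genes were then set side by side. In 786-M1A both genes of 81 of 152 pairs were called, 51 in the same direction (24 higher, 27 lower) and 30 in opposite directions, of which 21 had the antisense RNA lower and the sense gene higher. In OS-LM1 both were called in 87 of 152 pairs, 53 in the same direction (21 higher, 32 lower) and 34 in opposite directions, 20 of them with the antisense RNA lower. Spearman's rho of the fold changes across pairs was 0.17 and 0.26, given as a description because pairs share libraries and some share reads. In the 146 pairs tested in both lines, both genes were called in both lines in 48, in the same direction throughout in 17 and in opposite directions with the antisense RNA moving the same way in 9. Over all genes 70.4% were called in 786-M1A and 73.4% in OS-LM1. How often unrelated genes would be called together or in opposite directions was not tested, so that the pair counts are a description.

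The 17 pairs that moved together were 6 that rose (TPT1, P3H2, STXBP5, ST3GAL4, LIMD1 and PDCD4) and 11 that fell, among them APCDD1L, CTBP1, ARRDC1, PAX8, TMPO, PSMB8, RNASEH1, CBR3, PRKCQ and RUSC1. PRKCQ-AS1 and RUSC1-AS1 met the count rule through the sgNTC18 groups of OS-LM1 and 786-M1A. Outside those groups their means were 25.5 and 35.8 counts, so that the rule fixes part of their fall. PDCD4-AS1, divergent from the translation inhibitor gene PDCD4, rose by 1.43 ± 0.15 and 1.30 ± 0.16 on the log2 scale in 786-M1A and OS-LM1 (edgeR adjusted p = 7.7e-07 and 4.3e-07), and PDCD4 by 2.09 ± 0.18 and 1.26 ± 0.13. RNASEH1-AS1, 53 bases from the start of the ribonuclease H1 gene and shown above, went in 786-M1A from 7.02 to 8.73 CPM in the 4 sgNTC18 libraries down to 1.67 to 3.64 CPM in the 8 shPAX8 libraries. It fell by 1.51 on the log2 scale there and by 0.41 in OS-LM1 (edgeR adjusted p = 3.2e-06 and 0.016), while RNASEH1 fell by 0.91 and 0.27. PSMB8-AS1, head to head with the immunoproteasome gene PSMB8 and with 52.6% of its exon bases shared, fell by 2.01 and 1.65, and PSMB8 fell by 1.79 and 0.86.

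In 6 of the 9 opposite pairs the antisense RNA fell while the sense gene rose. NIPBL-AS1, divergent from the cohesin loader gene NIPBL, shares no exon bases with any gene on the other strand. In 786-M1A it went from 24.1, 25.6, 26.1 and 28.1 CPM to 11.1, 15.0 and 20.2 CPM, and NIPBL from 45.5 to 58.0 CPM up to 75.1, 108 and 145 CPM. In OS-LM1 NIPBL-AS1 went from 19.2 to 21.4 CPM down to 6.98, 9.50 and 11.5 CPM, and NIPBL from 42.6 to 48.2 CPM up to 74.3, 81.3 and 97.0 CPM. Neither gene's groups overlapped in either line. The changes of NIPBL-AS1 were -0.72 ± 0.10 and -1.12 ± 0.09 and those of NIPBL 1.12 ± 0.12 and 0.84 ± 0.09 as a log2 value (edgeR adjusted p at most 1.9e-05 in all 4).

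KMT2E-AS1, whose start lies 64 bases from that of the chromatin regulator gene KMT2E, changed by -1.18 ± 0.16 and -1.10 ± 0.21 on the log2 scale in 786-M1A and OS-LM1, and KMT2E by 0.60 ± 0.10 and 0.86 ± 0.09. In OS-LM1 the KMT2E-AS1 groups overlapped, at 2.28 to 4.19 CPM with sgNTC18 and 0.597 to 2.73 CPM with shPAX8. ZEB1-AS1, head to head with the gene of the mesenchymal transcription factor ZEB1, went in OS-LM1 from 3.95 to 6.20 CPM down to 0.792, 2.01 and 3.59 CPM, and ZEB1 from 12.5 to 15.2 CPM up to 23.1, 29.6 and 38.4 CPM. The changes of ZEB1-AS1 were -0.65 ± 0.14 and -1.47 ± 0.19 and those of ZEB1 1.38 ± 0.15 and 1.06 ± 0.09.

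EMC3-AS1 lies inside the gene of the membrane protein insertase subunit EMC3. None of its 534 GENCODE exon bases were shared, but the authors counted 4695 bases for it, most of which were not assessed. It fell by 0.66 and 1.74 while EMC3 rose by 1.18 and 1.29. TAPT1-AS1 changed by -1.29 and -0.49 and TAPT1 by 0.99 and 0.57. ZBTB11-AS1 changed by -1.75 and -0.53 and the zinc finger gene ZBTB11 by 1.24 and 1.00. The ratios of these 6 pairs, whose members were chosen by these same changes and so are given without a p-value, moved by between -1.77 for KMT2E-AS1 and -2.98 for ZBTB11-AS1 in 786-M1A and between -1.03 for TAPT1-AS1 and -2.94 for EMC3-AS1 in OS-LM1.

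In 3 pairs the antisense RNA rose while the sense gene fell. OIP5-AS1, tail to tail with the centromere protein gene OIP5 and sharing 3.39% of its exon bases, went in 786-M1A from 12.3 to 14.7 CPM up to 15.5, 18.0 and 27.4 CPM, and in OS-LM1 from 17.7 to 23.2 CPM up to 22.3, 26.8 and 31.2 CPM with overlapping groups. OIP5 went from 12.9 to 14.4 CPM down to 4.13, 5.42 and 6.32 CPM and from 21.1 to 23.9 CPM down to 5.39, 6.50 and 8.71 CPM. ZSCAN16-AS1 rose by 1.45 ± 0.10 and 1.01 ± 0.13 and the zinc finger gene ZSCAN16 fell by 1.87 and 0.95. EPB41L4A-AS1, with 51.2% of its exon bases shared, rose by 0.71 ± 0.16 and 0.92 ± 0.09, and EPB41L4A fell by 0.66 and 0.58.

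**Figure D3:**
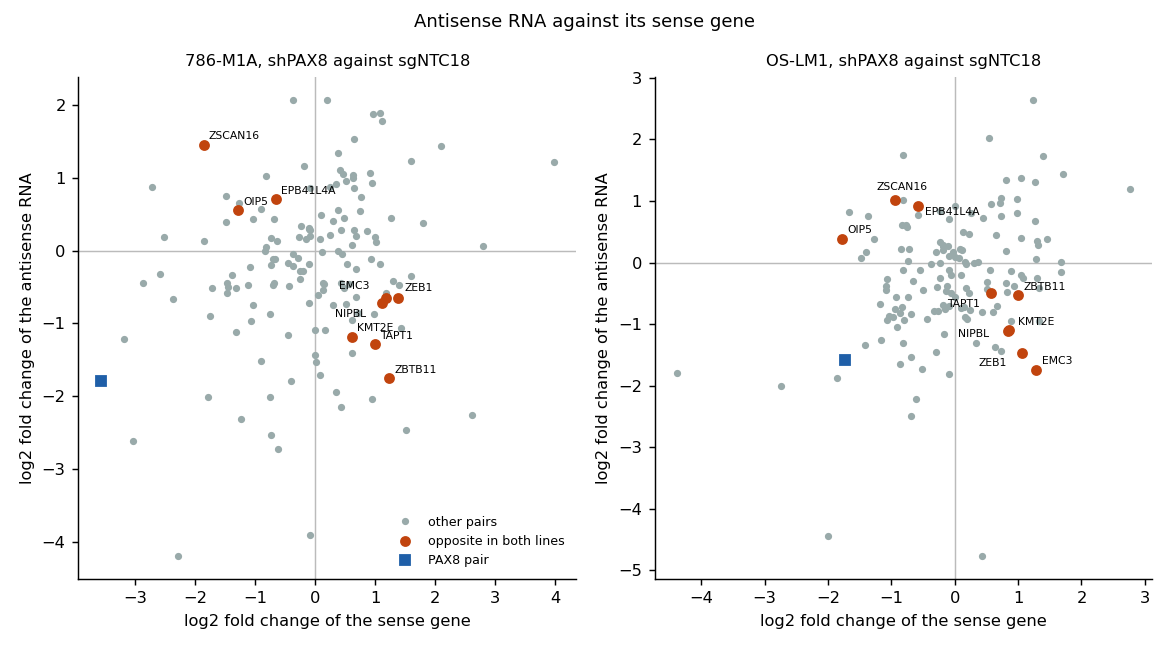
Log2 fold change, shPAX8 against sgNTC18, of each antisense RNA (vertical) against that of its sense gene (horizontal) in 786-M1A (left) and OS-LM1 (right); PCNA-AS1, SMARCA5-AS1 and PAPPA-AS1, at 0 in several libraries, are not drawn. The 9 named pairs lie in the upper left or lower right of both panels, and the PAX8 pair lies at the lower left.

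The hairpins against each other do not involve the sgNTC18 libraries as a group. In OS-LM1, where PAX8 was not shown to differ between the hairpins (-0.05 ± 0.12 on the log2 scale, edgeR adjusted p = 0.80), 63 of 169 members were called, 57 higher with shPAX8-1 and 6 lower. Over all 15049 genes 29.1% were called, 12.4% higher and 16.7% lower. The median log2 fold change was 0.33 over members and -0.03 over all genes, and the LINC genes gave 30 higher and 8 lower of 101 with a median of 0.24. Of the 33 members with no shared exon bases, 14 were called higher, with a median of 0.33. These 33 include SVIL-AS1 and EMC3-AS1, for which overlap was assessed over only part of the transcript. The part of overlap in the tilt was not tested.

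The largest differences in OS-LM1 were those of STXBP5-AS1, ZBED5-AS1, RPARP-AS1 and SCAMP1-AS1. STXBP5-AS1 stood at 7.14, 4.71, 5.98 and 6.64 CPM with shPAX8-1 and at 0.420, 1.01, 0.500 and 0.672 CPM with shPAX8-2, a 9.39-fold difference (edgeR adjusted p = 1.5e-07), and STXBP5 differed by 0.65 ± 0.10 on the log2 scale. ZBED5-AS1, divergent from ZBED5 with 16.1% of exon bases shared, stood at 21.7 to 36.0 CPM with shPAX8-1 and 6.51 to 11.2 CPM with shPAX8-2, where sgNTC18 gave 8.67 to 11.3 CPM. RPARP-AS1 stood at 3.81 to 5.25 CPM with shPAX8-1, close to the 4.37 to 5.15 CPM of sgNTC18, and at 1.37 to 1.90 CPM with shPAX8-2. SCAMP1-AS1, shown above beside the secretory carrier gene SCAMP1, stood at 7.97, 9.73, 7.78 and 7.78 CPM with shPAX8-1, at 2.94, 3.22, 2.96 and 3.20 CPM with shPAX8-2 and between them, at 5.01 to 7.29 CPM, with sgNTC18.

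Among the 6 members lower with shPAX8-1 the largest change was that of CCDC183-AS1 (-0.89 ± 0.27, edgeR adjusted p = 0.018). Its call was lost without replicate 3 of shPAX8-2 (-0.55, edgeR adjusted p = 0.15) or replicate 3 of shPAX8-1 (-0.69, edgeR adjusted p = 0.073). TRAF3IP2-AS1, TP73-AS1 and AGAP2-AS1 followed at -0.69, -0.54 and -0.50. Against sgNTC18, which both comparisons share, shPAX8-1 called 51 members higher and 55 lower, where 71.4% of all genes were called (35.6% higher, 35.8% lower). In the same way shPAX8-2 called 32 higher and 85 lower, where 68.4% of all genes were called (34.3% higher, 34.1% lower). The summed level of all members was 1730 to 1926 CPM with shPAX8-1, 1569 to 1741 CPM with shPAX8-2 and 1641 to 1761 CPM with sgNTC18, with overlapping groups. Only without LRRC75A-AS1, the most abundant member, did the shPAX8-2 libraries lie below the other 8. The sum was then 1408 to 1614 CPM with shPAX8-1, 1222 to 1336 CPM with shPAX8-2 and 1420 to 1555 CPM with sgNTC18.

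In 786-M1A, where PAX8 was lower with shPAX8-1, 72 of 170 members differed between the hairpins, 26 higher and 46 lower, where 47.1% of 14452 genes were called, 24.2% higher and 22.9% lower. Spearman's rho of this log2 fold change with GC content was -0.55 over 14143 genes. The same rho was -0.25 and -0.31 for shPAX8 against sgNTC18 in 786-M1A and OS-LM1. With the GC trend removed, 73 of 167 members differed between the hairpins in 786-M1A, 26 higher and 47 lower. The share of all genes called in that fit was not counted, and the part of GC content in the members' values was not tested. NR2F1-AS1, near the start of the nuclear receptor gene NR2F1, was 2.96-fold higher with shPAX8-1, LIMD1-AS1 2.63-fold, ROR1-AS1 2.41-fold and VIM-AS1, opposite the vimentin gene, 2.39-fold. NOP14-AS1 stood at 2.77, 2.50, 2.53 and 2.04 CPM with shPAX8-1 and at 9.10, 8.52, 10.8 and 9.99 CPM with shPAX8-2, a 3.88-fold difference (edgeR adjusted p = 2.1e-07), and MMP25-AS1, STARD4-AS1 and PSMD5-AS1 were 3.81-fold, 2.69-fold and 2.64-fold lower with shPAX8-1. The shPAX8-1 libraries of this line stood apart in pairs. Replicates 3 and 4 were both above or both below replicates 1 and 2 for 110 of 170 members (64.7%) and for 73.9% of all genes, and the count of calls depended on the pair. With replicates 1 and 2 of shPAX8-1 alone 40 members were called (13 higher, 27 lower), where 25.8% of all genes were, and with replicates 3 and 4 alone 85 (32 higher, 53 lower), where 60.8% were.

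**Figure D4:**
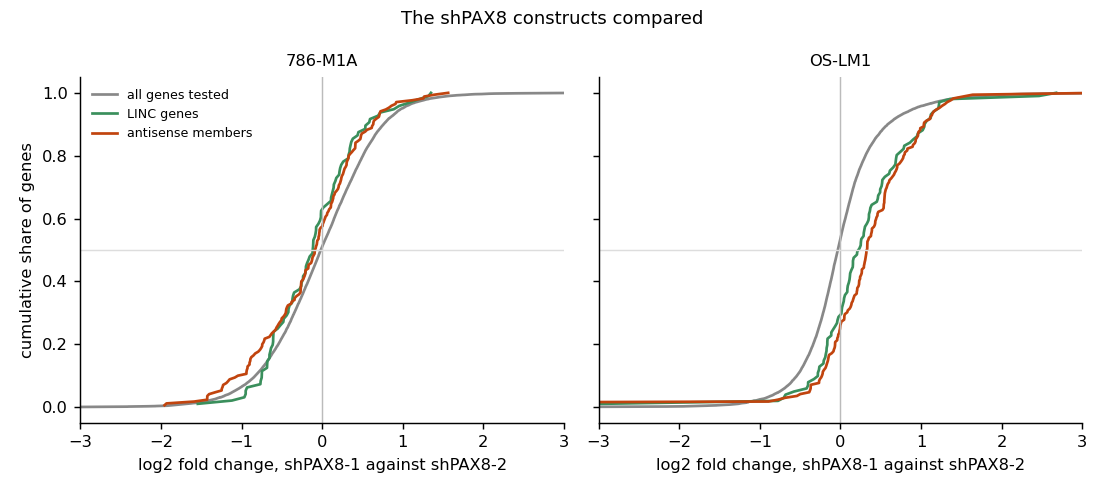
Cumulative share of genes by log2 fold change of shPAX8-1 against shPAX8-2 in 786-M1A (left) and OS-LM1 (right) for all genes tested, LINC genes and antisense members; values beyond 3 in either direction are off the axis. In OS-LM1 the members' curve is shifted to higher values, with medians of 0.33 for members, 0.24 for LINC genes and -0.03 for all genes.

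The lines were also compared within the sgNTC18 libraries. With sgNTC18, 102 of 171 members differed, 44 higher and 58 lower in OS-LM1, where 63.0% of 15665 genes differed, 32.0% higher and 31.0% lower. AFAP1-AS1 was 75.1-fold higher in OS-LM1, at 72.5 to 84.8 CPM against 0.663 to 1.36 CPM, and FLG-AS1, PHKA2-AS1 and BBOX1-AS1 were 7.20-fold, 7.12-fold and 4.34-fold higher. CERS6-AS1, with 69.6% of exon bases shared, stood at 16.5 to 18.4 CPM in 786-M1A and at 0 to 0.640 CPM in OS-LM1, and ATP2A1-AS1, with 49.1% shared, was 27.1-fold lower in OS-LM1. AFAP1-AS1, PHKA2-AS1 and ATP2A1-AS1 each met the count rule through the group in which they are high here.

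ZNF667-AS1 was read in essentially 1 line. It starts head to head with the zinc finger gene ZNF667 at chr19:56477874-56495437, on the plus strand, and shares 3.95% of its exon bases. It stood at 7.80, 7.46, 5.82 and 8.12 CPM with sgNTC18 in 786-M1A and rose 2.34-fold with shPAX8 there (edgeR adjusted p = 7.9e-07), and in OS-LM1 it was at 0 in 9 of 12 libraries and at most 0.0700 CPM in the others. ZNF667 was also low in OS-LM1, at 0.0878 to 0.980 CPM over all 12 libraries, and rose by 1.60 on the log2 scale with shPAX8 in 786-M1A, to between 7.39 and 13.7 CPM.

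The pairs were also compared between the lines. With sgNTC18, where 63.0% of all genes were called, both genes were called in 66 of 159 pairs and 50 had the same sign. By arrangement these were 36 of 43 divergent or head-to-head pairs, 9 of 13 tail-to-tail pairs, 3 of 7 pairs with the antisense RNA inside the sense gene, 1 of 2 spanning it and 1 of 1 not placed. Spearman's rho across pairs was 0.44, with 0.60 over the divergent or head-to-head pairs, 0.36 over the tail-to-tail pairs and 0.0041 over those inside the sense gene, again as a description. With shPAX8, 152 of 171 members differed between the lines, 68 higher and 84 lower in OS-LM1, where 83.1% of genes did, 41.7% higher and 41.5% lower, and 71 of 120 pairs called for both genes had the same sign. Among the members, LMO7-AS1, C1QTNF9B-AS1 and RASSF8-AS1 were 20.9-fold, 10.3-fold and 9.58-fold higher in OS-LM1. LMO7-AS1 met the count rule through shPAX8-1 and C1QTNF9B-AS1 through shPAX8-2 of OS-LM1. Outside those groups their means were 40.6 and 44.3 counts, so that the rule fixes part of their difference. MAGI2-AS3, head to head with the scaffold protein gene MAGI2, was 20.8-fold lower (edgeR adjusted p = 8.4e-20).

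The response to shPAX8 itself differed between the lines for 113 of 171 members, 53 with the higher change in OS-LM1 and 60 with the lower, where 58.7% of 15665 genes differed, 29.9% higher and 28.8% lower. MAGI2-AS3 rose in 786-M1A, from 6.05 to 7.39 CPM up to 10.7, 16.1 and 19.4 CPM, and fell in OS-LM1, from 1.46 to 2.31 CPM down to 0.477, 0.725 and 0.979 CPM, a difference of -2.63 ± 0.24 as a log2 value (edgeR adjusted p = 5.9e-10). LMO7-AS1 fell in 786-M1A, from 0.702 to 1.11 CPM down to 0 to 0.442 CPM, and rose in OS-LM1, from 1.84 to 2.82 CPM up to 2.80 to 6.41 CPM with overlapping groups, a difference of 2.95 ± 0.47. NOP14-AS1 differed by 3.09 ± 0.17 (edgeR adjusted p = 2.5e-14), and AFAP1-AS1 by -4.14 ± 0.28. AFAP1-AS1 and LMO7-AS1 are among the 18 members whose mean rests on their highest group. LRRC75A-AS1, the most abundant member, stood at 174 to 200 CPM with sgNTC18 in 786-M1A and its change with shPAX8 was not called there (-0.02 ± 0.07, edgeR adjusted p = 0.83), and in OS-LM1 it went from 207 to 233 CPM up to 295 to 405 CPM (0.62 ± 0.07, edgeR adjusted p = 3.2e-07).

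PCNA-AS1 and SMARCA5-AS1 were listed at 0 in some libraries and at high values in others of the same group. PCNA-AS1, inside the gene of the replication clamp PCNA, was at 0 in 9 libraries, namely 7 of the 8 shPAX8 libraries of OS-LM1 and replicates 3 and 4 of shPAX8-1 in 786-M1A. In the other 15 libraries it had 110 to 1759 estimated counts, and PCNA stood at 77.0 to 282 CPM where PCNA-AS1 was at 0. In OS-LM1 with sgNTC18 it stood at 49.5, 47.3, 44.1 and 38.0 CPM. SMARCA5-AS1, head to head with the chromatin remodeller gene SMARCA5 and with 42.3% of exon bases shared, was at 0 in 8 libraries, 6 of OS-LM1 and 2 of 786-M1A, all of which are also at 0 for PCNA-AS1. In the other 16 it had 14.6 to 306 counts. An exact 0 of an estimated count can be a failed assignment between overlapping transcripts, and this was not tested. Without both RNAs the counts of called members were 117 (46 higher, 71 lower) for shPAX8 against sgNTC18 in OS-LM1, 150 for the lines with shPAX8 and 111 for the difference between lines.

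**Figure D5:**
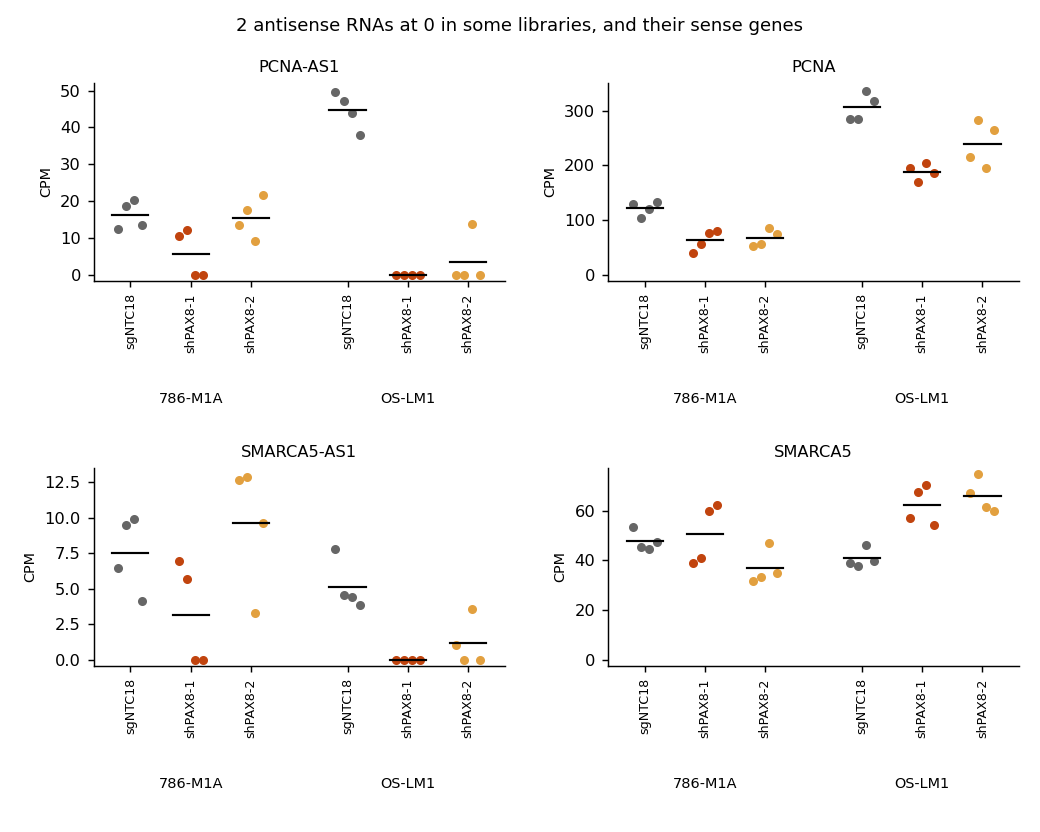
CPM of PCNA-AS1, PCNA, SMARCA5-AS1 and SMARCA5 in the 24 libraries, by line and construct; points are libraries and bars group means. PCNA-AS1 and SMARCA5-AS1 are at 0 in 9 and 8 libraries and well above 0 in others, while their sense genes are above 0 throughout.

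Antisense RNAs that are often studied in tumours were listed separately, chosen with earlier results known. Of 36 listed, 18 were members, and these gave 4 higher and 7 lower in 786-M1A and 5 higher and 10 lower in OS-LM1, with median log2 fold changes of -0.27 and -0.43. Over all genes 70.4% and 73.4% were called. FOXD2-AS1, divergent from a forkhead factor gene, changed by -0.46 ± 0.17 in 786-M1A with overlapping groups (edgeR adjusted p = 0.03) and by -2.50 ± 0.19 in OS-LM1 without overlap (edgeR adjusted p = 6.8e-10). It stood there at 4.19 to 5.24 CPM with sgNTC18 and at 0.441 to 1.06 CPM with shPAX8. MAPKAPK5-AS1 rose by 1.16 ± 0.13 in 786-M1A and changed by -0.50 ± 0.10 in OS-LM1 (edgeR adjusted p = 1.6e-06 and 0.00021), where its shPAX8-2 libraries, at 5.21 to 6.24 CPM, lay below the sgNTC18 and shPAX8-1 libraries, at 9.63 to 12.2 CPM. Between the hairpins in OS-LM1, 7 of the 18 were higher with shPAX8-1 and 1 was lower (12.4% and 16.7% of all genes), among them ZEB1-AS1 at 1.07 ± 0.25, SLC2A1-AS1 at 1.03 ± 0.23 and GABPB1-AS1 at 0.96 ± 0.19.

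Genes of the machinery that handles such RNAs are set here beside the 70.4% of all genes called in 786-M1A (35.7% higher) and the 73.4% in OS-LM1 (36.4% higher). Of 19 genes of the nuclear RNA exosome and its adaptors, 5 were called higher and 12 lower in 786-M1A and 6 and 9 in OS-LM1. The exosome core genes EXOSC4 and EXOSC5 changed by -1.50 and -0.59 in 786-M1A and by -0.51 and -2.55 in OS-LM1, and the exosome ribonuclease gene DIS3 by 0.87 and 1.01. Between the hairpins in OS-LM1, 1 of the 19 was higher with shPAX8-1 and 3 were lower, where 12.4% and 16.7% of all genes were. Of 8 genes for binding and editing double-stranded RNA, 4 were higher and 4 lower in 786-M1A and 2 and 4 in OS-LM1, with the editing enzyme gene ADARB1 at 1.98 and -0.60. Of 10 genes of polycomb repressive complex 2, 4 were higher and 3 lower in 786-M1A and 3 and 5 in OS-LM1, with the methyltransferase gene EZH2 at -1.58 and -1.87 and JARID2 at 1.62 and 1.27.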

How the data were processed

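RNA-seq libraries from 2 lines and 3 constructs, 4 replicates each, were grouped by their labels. The labels describe total RNA, poly(A) selection and a stranded dUTP kit, while the study's methods name another kit. Before deposit, the authors aligned and quantified reads with Bowtie2 and RSEM on GRCh38 (hg38), per the submitters' processing notes; versions and annotation are not given in the sources used here, nor is strand use. The deposited tables, 1 per library, hold estimated counts (expected counts that RSEM shares among overlapping transcripts and that need not be whole), TPM values that the authors derived per length and gene lengths. The accuracy of all values is limited by how reads were shared between overlapping genes.

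Here expected counts were rounded and tested with edgeR 4.0.16 (R 4.3.3; TMM, filterByExpr, robust quasi-likelihood fit, Benjamini-Hochberg adjustment over all genes tested, threshold 0.05). Each line was fitted alone for the constructs, and all 24 libraries together for the lines and for the difference between lines. CPM used TMM-normalised library sizes. Pair ratios were log2 of antisense over sense TPM with 0.1 added to each. A two-sided exact permutation test was run on 65 named pairs, 260 tests in all, without adjustment. Its p-value is given for the PAX8 pair only (smallest p 0.004 for 8 against 4 libraries and 0.0286 for 4 against 4). The fit was tested on simulated data. Totals of 11634419 to 52059375 counts set the counting error. Positions, promoters and symbols came from RefSeq GRCh38.p14 (169 of 171 members matched, 163 by accession and 6 by symbol), exons from GENCODE v44.

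The members, lists and rules were chosen with earlier results of these data known. Named were PAX8-AS1, the 10 members highest in TPM, the 4 that rose and the 4 that fell most in each comparison among called members with at least 1 CPM in the higher group, pairs opposite in both lines, often studied members, members near the threshold, and their sense genes. Other genes named, among them the pairs that moved together, were chosen after their values were seen. Alternatives were DESeq2 1.42.0, other normalisation, filters, thresholds and membership rules, single hairpins, a replicate block, a GC correction, members without exon overlap and leaving out each library; the class with under 30% overlap and the set without members that RefSeq classes as coding or pseudogene were added after seeing the data.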

Additional observations from a re-analysis of the deposited data

Results flagged for a closer look

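Among 11 members (PAX8-AS1 and the 10 highest in TPM) in 6 groups of 4 libraries, 66 groups in all, 5 held a library far from the other 3 by Dixon's criterion, where chance gives about 1 in 20, or 3.3. PCNA-AS1 stood at 13.7 CPM in replicate 3 of shPAX8-2 in OS-LM1, the deepest library, and at 0 in the other 3. UGDH-AS1 stood at 37.1 CPM in replicate 4 of shPAX8-2 in 786-M1A against 53.7 to 56.8 CPM in the others, and NUTM2A-AS1 at 19.6 CPM in the same library against 17.6 to 17.7 CPM. FGD5-AS1 stood at 89.0 CPM in replicate 2 of shPAX8-2 in OS-LM1 against 78.5 to 80.1 CPM. PITPNA-AS1 stood at 19.7 CPM in replicate 3 of sgNTC18 in OS-LM1 against 15.3 to 16.1 CPM.

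The change with shPAX8 differed between the lines, by the interaction term of the 24-library fit, most in 8 members. As log2 differences, OS-LM1 minus 786-M1A, they were PAPPA-AS1 at 7.69, APOBEC3B-AS1 at 4.27, NOP14-AS1 at 3.09 and LMO7-AS1 at 2.95, and PCNA-AS1 at -7.49, SMARCA5-AS1 at -5.51, AFAP1-AS1 at -4.14 and PHKA2-AS1 at -3.68. The values of PAPPA-AS1, PCNA-AS1 and SMARCA5-AS1 rest on libraries at 0 and give no bound on a fold, and APOBEC3B-AS1 was under 0.4 CPM throughout OS-LM1. PAPPA-AS1, APOBEC3B-AS1, LMO7-AS1, AFAP1-AS1 and PHKA2-AS1 met the count rule through 1 group, without which their mean was under 50, so that part of their difference follows from how members were chosen.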

How the results depend on the processing

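Over 216 alternative counts of called members, 204 stayed within 1.5 times the reported count, and no direction reversed in any alternative. The other 12 arose mostly where fewer members were counted. Among the 33 members without exon overlap, 21 and 24 were called for shPAX8 against sgNTC18 in 786-M1A and OS-LM1, 14 and 14 for the hairpins, 22 and 30 for the lines with sgNTC18 and shPAX8, and 22 for the line difference. At a mean count of at least 100 the counts were 75 for shPAX8 against sgNTC18 in OS-LM1, 95 for the lines with shPAX8 and 72 for the line difference. For the hairpins in 786-M1A, 46 were called at an adjusted p under 0.01 and 40 with replicates 1 and 2 of shPAX8-1 alone, against 85 with replicates 3 and 4 alone. Without 1 library the counts ran from 105 to 115 and 110 to 122 for shPAX8 against sgNTC18 in 786-M1A and OS-LM1, 53 to 73 and 56 to 64 for the hairpins, 95 to 104 and 148 to 153 for the lines, and 105 to 115 for the line difference, and the change of the PAX8 pair ratio from 1.70 to 1.88 and 0.09 to 0.46. Of 1779 alternatives for named members and ratios, 1775 kept their call. The exceptions were PAX8-AS1 and CCDC183-AS1, given above, and SMARCA5-AS1 in OS-LM1 with shPAX8-2 alone (-1.92, edgeR adjusted p = 0.13). DESeq2 gave no adjusted p for PCNA-AS1 in OS-LM1. Same-numbered libraries deviated together with correlations from -0.319 to 0.271. Those of the hairpins in 786-M1A were all positive (0.037 to 0.271, mean 0.17, against -0.057 for other numbers), with 3 of 4 over 0.1 and 4 of 8 libraries closest to their own number. No pair of groups had all 4 over 0.1, so that the numbers were not taken to pair libraries. With the replicate block 115, 115, 72, 59, 104, 152 and 113 members were called in the order above. Chosen after seeing the data, members with under 30% overlap gave 85 and 93 for shPAX8 against sgNTC18, and those that RefSeq does not class as coding or pseudogene 108 and 118. The part of depth in the calls was not tested. Except with replicates 1 and 2 or 3 and 4 of shPAX8-1 alone, the share of all genes called was not counted under these alternatives. In the main fits that share ran from 29.1% to 83.1%, so that the counts in this section describe the members alone.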
